A study of Mus musculus with 93 samples.

Results

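The 31 genes described here encode receptors for the inhibitory transmitter GABA, the proteins that make, carry and break down GABA, proteins of the inhibitory synapse, and markers and transcription factors of inhibitory interneurons. They were listed by gene symbol, with earlier results of these data known, and matched to Ensembl identifiers of the mouse genome build GRCm38. All 31 were among the 47643 gene identifiers counted in each mouse. The symbol *Dlx6os1* matched 2 identifiers, and its values here are those of ENSMUSG00000090063. Of the 31, 14 encode subunits of GABA-A receptors, 2 encode subunits of the GABA-B receptor, 5 act in GABA synthesis, transport and breakdown, 2 encode a scaffold and an adhesion protein of inhibitory synapses, and 8 are interneuron genes. All 31 passed the filter on low counts, which left 23702 genes to test, and no mouse had a count of 0 for any of them. The questions were how the level of each gene differed between WT strains, with attention to *Gabra2* in B6, and how it responded in each strain to transgenes that lead to amyloid deposition.

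Bulk RNA-seq counts came from the left hemisphere of 93 male and female mice aged 8 months. The mice were of the laboratory strain C57BL/6J (B6) or of PWK/PhJ (PWK), WSB/EiJ (WSB) or CAST/EiJ (CAST), which were founded by wild-caught mice. Mice named *APP/PS1* were hemizygous for the APPswe and PSEN1dE9 transgenes, driven by the mouse prion protein promoter and bred from B6 into the other strains by repeated backcrossing, and WT mice were littermates without the transgenes. Split by sex, genotype and strain the mice formed 16 groups of 6, except for 4 female B6.*APP/PS1* mice and 5 female PWK WT mice. Reads on genes ranged from 53969802 to 106016200 in a mouse, with a median of 66559575, and the member with the fewest reads, *Gabrr1*, had a median of 19. Levels are given as CPM, read counts scaled to library size with TMM factors, and differences as log2 values from edgeR averaged over the sexes, ± the standard error (SE). A gene was called where its p, adjusted over all genes tested, was under 0.05. As a check on genotype, the *App* level of each *APP/PS1* mouse was above that of each WT mouse of its strain, for example a lowest value of 2949.9 CPM against a highest of 1656 CPM in B6.

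GABA is made from glutamate by glutamate decarboxylase, loaded into synaptic vesicles and released by inhibitory neurons, and it opens the chloride channels called GABA-A receptors or activates the G protein-coupled GABA-B receptor. A GABA-A receptor is a ring of subunits drawn from several families, and the alpha subunit in it sets much of its place in the neuron and its pharmacology. Interneurons are classed by proteins such as parvalbumin, calretinin and reelin, and their identity in development depends on transcription factors of the Dlx and Lhx families.

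Some libraries stood apart. The sample labels name no batch, so library sets were inferred. The CAST, WSB and PWK libraries were ordered by library number. A new set was started wherever a barcode, the short sequence that marks a library, came back. This gave 3 sets of 24, 24 and 23 mice, each with all 3 strains, and the B6 libraries were taken as a series of their own. A set held 2 to 7 mice of a strain and genotype, except for 1 CAST.*APP/PS1* mouse in set 2, so values within sets rest on few mice. A difference of B6 from another strain therefore cannot be told apart from a difference between the library series. Each strain was aligned to its own genome, and the paper states that the strains were tested one after another. Differences between strains, those among the wild-derived ones included, cannot be told apart from the genome used or the time of testing. Among the B6 libraries, B6.*APP/PS1* female 2 and B6 WT male 5 lay together outside the range of the other 20 B6 mice in 6817 genes, against 637 for the next of the 231 pairs. Of the 31 members, 9 were lower in both of these mice than in the other 20 (29.0%, beside 13.9% of all genes) and 4 were higher (12.9%, beside 14.8%). *Gabrb2*, for example, had 112 and 94.1 CPM in them and 196 to 274 CPM in the others. *Gabrb1*, *Gabrg1*, *Gabrg3*, *Gabrq*, *Gabbr2*, *Gad2*, *Abat* and *Reln* were the others on the low side, and *Gabrd*, *Slc32a1*, *Pvalb* and *Calb2* were on the high side. *Gabra2* was not among them, at 62.9 and 63.0 CPM within the 62.2 to 90.0 CPM of the other 20. Counts of called list genes against B6, and the differences of most called members, are also given without this pair of mice.

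*Gabra2* (ENSMUSG00000000560) encodes the alpha 2 subunit of GABA-A receptors, which is found at synapses on forebrain principal neurons, including those on the axon initial segment. In WT B6 mice its lowest, median and highest levels were 62.2, 70.6 and 82.5 CPM. In WT CAST mice they were 145, 186 and 207 CPM, in WT WSB mice 153, 169 and 191 CPM and in WT PWK mice 193, 214 and 235 CPM. No WT mouse of the wild-derived strains came near the B6 range, and the WSB and PWK ranges did not overlap either, while CAST overlapped both. On the log2 scale *Gabra2* was higher than in B6 by 1.39 ± 0.045 in CAST, by 1.27 ± 0.044 in WSB and by 1.63 ± 0.045 in PWK. These are 2.62-fold, 2.41-fold and 3.09-fold differences, seen in 12 of 12, 12 of 12 and 11 of 11 mice of the wild-derived strain against every B6 mouse. The edgeR adjusted p was 3.89e-46 for CAST, 5.12e-43 for WSB and 1.45e-50 for PWK. *Gabra2* against B6 was singled out with earlier results of these data known, so these are not p values of a gene chosen beforehand. The 3 comparisons share the same 12 WT B6 mice. Without the 2 B6 mice that stood apart the differences were 1.37, 1.25 and 1.61.

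Among the 23702 genes tested, 2531 (10.7%) differed from B6 by at least as much in CAST, 1537 (6.48%) in WSB and 1991 (8.40%) in PWK. Ordered by p, *Gabra2* was at place 82, 55 and 44, nearer the top of the list than when ordered by the size of its difference.

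Among the wild-derived strains *Gabra2* was lower in WSB than in PWK, at -0.35 ± 0.044 (edgeR adjusted p = 5.73e-11), with each of the 12 WSB mice below each of the 11 PWK mice, and the difference was -0.39 to -0.36 within the 3 library sets, as the log2 ratio of the means in a set. CAST was lower than PWK, at -0.24 ± 0.044 (edgeR adjusted p = 3.75e-06; -0.28 to -0.19 within sets), with 7 of 12 CAST mice below all PWK mice. CAST was above WSB by 0.12 ± 0.043 (edgeR adjusted p = 0.0171; 0.11 to 0.17 within sets), with 5 of 12 CAST mice above all WSB mice. The order of the medians was thus PWK, CAST, WSB and B6, with wide overlap between CAST and WSB.

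Levels of different genes can be compared only per length of exon. On that scale *Gabra2* had a mean of 9.12 CPM per kilobase in WT B6 mice, place 20 of the 31 members, against 23.9 in CAST (place 15), 22.0 in WSB (place 16) and 28.1 in PWK (place 15). Of the summed level of the 5 alpha subunit genes *Gabra2* to *Gabra6*, it made up 8.01% for B6, against 17.3% for CAST, 15.997% for WSB and 17.4% for PWK. Mouse by mouse the share ran from 7.28% to 9.20% in WT B6 and from 14.2% to 19.3% in WT CAST, the lowest of the WT wild-derived mice. The share of *Gabra2* in this set of alpha subunits was thus higher outside B6, with no overlap between WT B6 mice and those of the other strains. In B6 *Gabra6* (31.9%) and *Gabra3* (29.2%) were the largest shares, and in PWK *Gabra6* was 42.1% and *Gabra3* 21.5%.

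*Gabra2* was not called in the *APP/PS1* response of any strain. In B6.*APP/PS1* mice the lowest, median and highest levels were 62.9, 72.0 and 90.0 CPM, in CAST.*APP/PS1* mice 174, 189.9 and 214 CPM, in WSB.*APP/PS1* mice 164, 178 and 193 CPM and in PWK.*APP/PS1* mice 194, 223 and 263 CPM. Each of these ranges overlapped that of its WT littermates, and the B6.*APP/PS1* mice stayed below every mouse of the other strains. The differences between *APP/PS1* and WT were 0.070 ± 0.047, 0.072 ± 0.043, 0.072 ± 0.043 and 0.040 ± 0.044 for B6, CAST, WSB and PWK, none of which was called by edgeR (adjusted p = 1.00, 0.769, 0.755 and 0.824). The test of whether the response differed between strains gave an edgeR adjusted p of 1.000.

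**Figure D1:**
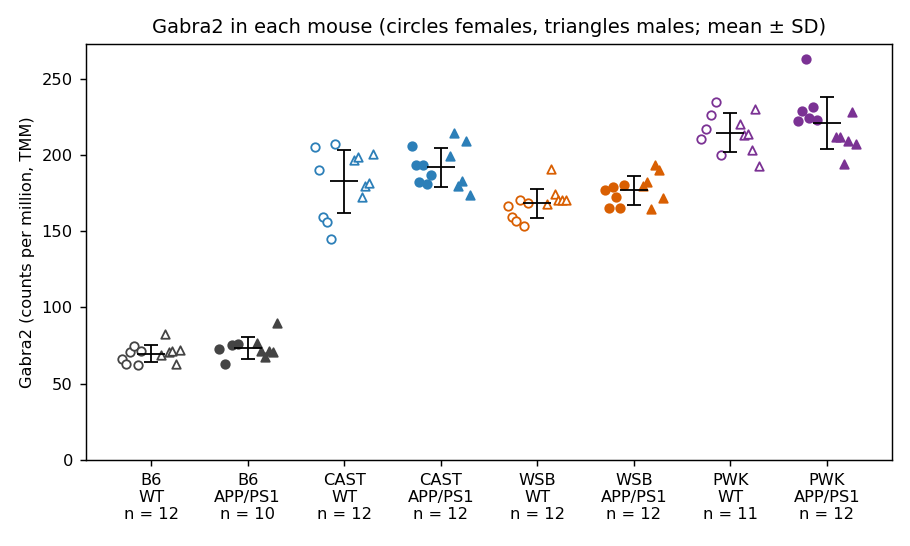
*Gabra2* level (CPM) in each of the 93 mice by strain and genotype, circles for females and triangles for males, with the mean ± SD. WT B6 mice lie between 62.2 and 82.5 CPM and WT PWK mice between 193 and 235 CPM, with no overlap.

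*Gabra2* lies on chromosome 5 at chr5:70957597-71095849 on the minus strand of GRCm38, in a cluster with *Gabrg1*, *Gabra4* and *Gabrb1*. Within a window of 1000000 bases on each side, 7 other genes were tested, among them these 3 members, and the cluster did not move as a block. *Gabrg1*, which encodes a gamma subunit, differed from B6 by -0.047, 0.13 and 0.45 in CAST, WSB and PWK, the last of which was called. *Gabra4*, for an alpha subunit of receptors outside synapses, differed by -0.0019, 0.10 and -0.092 and was not called. *Gabrb1*, for a beta subunit, differed by 0.31, 0.12 and 0.020 and was called in CAST. None of the 3 showed the difference of *Gabra2* in all strains. Of the 4 neighbours that are not members, chosen by position alone, *Cox7b2* was lower than in B6 in each strain, at -1.79, -2.33 and -1.14. *Gm38562* was also lower in each, at -1.82, -0.83 and -1.43, *Gm15617* differed by 1.69, 1.39 and 0.68 and was called in CAST and WSB, and *Gm15616* by 0.28, -0.11 and -0.67 and was called in PWK. These 3 lie within the span of *Gabrb1*, which also overlaps *Gabra4*, and as the strand setting of the counting was not stated, reads that they share cannot be told apart.

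In WT CAST against WT B6 the members that stood out were *Gabra2*, *Gabra6* and *Reln*, higher in CAST, and *Gabrr2*, lower in CAST. edgeR called 16 of the 31 members, beside 61.4% of all genes tested. Of these 9 were higher in CAST, beside 30.3%, and 7 lower, beside 31.1%, and 5 differed by at least 0.5 in absolute log2, beside 28.0%. The called members were 9 of 14 GABA-A subunits, 2 of 2 GABA-B subunits, 1 of 5 genes of synthesis, transport and breakdown, 2 of 2 synaptic genes and 2 of 8 interneuron genes. The median log2 difference of the 31 was 0.034 and their median absolute difference 0.12, beside 0.00 and 0.27 over all genes. The values of the groups did not overlap for 3 members, *Gabra2*, *Gabra6* and *Reln*, beside 15.3% of all genes. Without the 2 B6 mice 15 members were called, *Gabrq* being lost (log2 difference 0.24, edgeR adjusted p = 0.0898).

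In WT WSB against WT B6 most of the called members were higher in WSB, with *Gabra2*, *Dlx6os1*, *Gabrr1* and *Gabre* differing most. edgeR called 13 of 31 members, beside 47.5% of all genes, 10 of them higher (beside 23.2%) and 3 lower (beside 24.3%), and 4 differing by at least 0.5 (beside 17.1%). They were 7 of 14 GABA-A subunits, 1 of 2 GABA-B subunits, 1 of 5 genes of synthesis, transport and breakdown, 1 of 2 synaptic genes and 3 of 8 interneuron genes. The median log2 difference of the 31 was 0.044 and their median absolute difference 0.10, beside 0.00 and 0.20 over all genes. For 1 member, *Gabra2*, the groups did not overlap, beside 8.24% of all genes, and 13 members were called without the 2 B6 mice.

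WT PWK against WT B6 gave the largest differences of *Gabra2* and *Gabra6*, together with higher *Gabrq* and *Gabrg1*. edgeR called 16 of 31 members, beside 59.2% of all genes, 12 of them higher (beside 28.8%) and 4 lower (beside 30.4%), and 3 differing by at least 0.5 (beside 27.5%). They were 8 of 14 GABA-A subunits, 1 of 2 GABA-B subunits, 2 of 5 genes of synthesis, transport and breakdown, 2 of 2 synaptic genes and 3 of 8 interneuron genes. The median log2 difference of the 31 was 0.062 and their median absolute difference 0.14, beside 0.00 and 0.27 over all genes. The groups did not overlap for *Gabra2*, *Gabra6*, *Gabrg1* and *Nlgn2*, 4 members, beside 15.3% of all genes. Without the 2 B6 mice 15 members were called: *Gabrr2* (-0.39, edgeR adjusted p = 0.0669), *Gabre* (0.41, 0.0629) and *Gad2* (0.062, 0.0751) were lost, and *Gabrd* (0.16, 0.0110) and *Gabbr1* (-0.039, 0.0226) were gained. Over the 3 comparisons, which share their B6 mice, 8 members were called as higher than B6 in each wild-derived strain, *Gabra2*, *Gabra6*, *Gabrb2*, *Gabre*, *Gabrq*, *Gabbr2*, *Nlgn2* and *Reln*, beside 9.35% of all genes, and *Gabra5* was called as lower in each, beside 10.55%. Of the 8, 6 remained without the 2 B6 mice, *Gabrq* being lost in CAST and *Gabre* in PWK, and *Gabra5* remained lower.

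**Figure D2:**
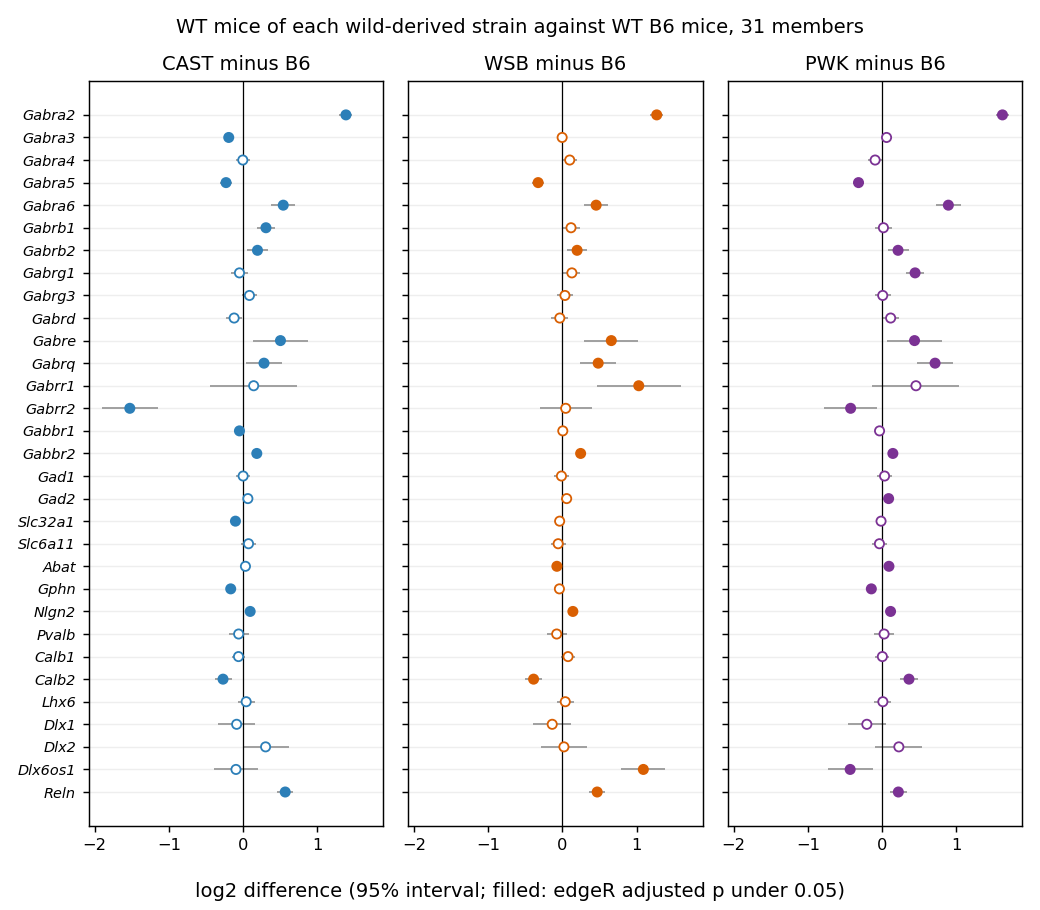
Log2 difference (points, filled where called, with 95% intervals from edgeR) of each of the 31 members in WT mice of CAST, WSB and PWK against WT B6. *Gabra2* is higher by 1.39, 1.27 and 1.63, and *Gabrr2* is lower, at -1.53 in CAST.

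Of the other alpha subunits, *Gabra6*, which in brain is made mainly by cerebellar granule cells, was higher than B6 in each wild-derived strain. Its lowest, median and highest levels were 58.9, 91.7 and 106 CPM in WT B6, 107, 129 and 166 CPM in CAST, 97.0, 125 and 157 CPM in WSB and 142, 154 and 248 CPM in PWK. CAST and PWK lay wholly above B6, WSB overlapped B6 at its lower end, and a PWK mouse stood far above the rest. The differences were 0.54 ± 0.083 in CAST (edgeR adjusted p = 1.69e-08, 12 of 12 mice above all B6 mice), 0.45 ± 0.083 in WSB (2.47e-06, 11 of 12) and 0.90 ± 0.084 in PWK (3.74e-16, 11 of 11), and 0.50, 0.41 and 0.85 without the 2 B6 mice. *Gabra5*, the alpha subunit of extrasynaptic receptors of hippocampal pyramidal cells, went the other way, with medians of 52.0 CPM in B6 and 44.4, 41.8 and 41.9 CPM in CAST, WSB and PWK. It was lower, at -0.23 ± 0.040, -0.33 ± 0.040 and -0.32 ± 0.041 (edgeR adjusted p = 6.60e-07, 3.52e-11 and 1.54e-10), and its ranges overlapped in every pair with B6. It was also lower without the 2 B6 mice, at -0.23, -0.33 and -0.32. *Gabra3*, an alpha subunit frequent in monoaminergic and brainstem neurons, was called in CAST alone, as lower, at -0.19 ± 0.028 (-0.20 without the 2 B6 mice), and *Gabra4* was not called in any strain against B6.

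Cerebellar granule cell markers were compared beside *Gabra6*. The summed level of 7 such markers, with *Cbln3* (B6 and WSB) or *Fat2* (CAST and PWK) the most abundant in WT mice, had its lowest, median and highest values at 687, 985 and 1063 CPM in WT B6, 694, 1060.4 and 1299.7 CPM in CAST, 872, 1072 and 1264 CPM in WSB and 1131, 1233 and 1732 CPM in PWK. The sums of CAST and WSB thus overlapped those of B6, while PWK lay above them. Of the 7, edgeR called 4 against B6 in CAST and 4 in WSB, all higher, and 7 in PWK, 6 of them higher, beside 61.4%, 47.5% and 59.2% of all genes in CAST, WSB and PWK, and none of the 7 was at 0 in any group. The counts without the 2 B6 mice were 3, 4 and 7. Across the 93 mice, after the mean of each group was taken off, *Gabra6* followed the sum with r = 0.89 and rho = 0.88, each with a permutation p of 1e-05, the smallest that the permutations can give (adjusted over 62 relations 5.64e-05 and 5.64e-05). Without the 2 mice farthest from the median, r was 0.88, and within the B6 series and the 3 library sets it ran from 0.79 to 0.98. In bulk tissue more cells of a type and more RNA per cell cannot be told apart, and the part of the share of cerebellum in the *Gabra6* difference was not tested. For *Gabra2* the same correlation was -0.36 for r and -0.36 for rho (permutation p = 4.50e-04 and 3.90e-04, adjusted 0.00155 and 0.00127; -0.28 for r without the 2 farthest mice; -0.69 to 0.19 within the series and sets, being positive in the B6 series and negative in the 3 sets).

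Of the beta and gamma subunits, which complete the common receptors, *Gabrg1* in PWK and *Gabrb1* in CAST differed most from B6. *Gabrb2*, the beta subunit of the most widespread GABA-A receptors, was higher than B6 by 0.20 ± 0.071, 0.20 ± 0.071 and 0.22 ± 0.072 in CAST, WSB and PWK (edgeR adjusted p = 0.0130, 0.0164 and 0.00750). Its median was 229 CPM in B6 and 251, 253 and 258 CPM in the others, and without the 2 B6 mice the differences were 0.12, 0.12 and 0.14. *Gabrg1* had its lowest, median and highest levels at 25.8, 34.6 and 39.3 CPM in WT B6 and 41.2, 46.4 and 50.9 CPM in WT PWK. The PWK mice lay wholly above the B6 mice, with a difference of 0.45 ± 0.060 (edgeR adjusted p = 5.88e-10, 11 of 11 mice), and of 0.41 without the 2 B6 mice. *Gabrb1* was higher in CAST than in B6 by 0.31 ± 0.059 (edgeR adjusted p = 3.68e-06, 10 of 12 above all B6 mice), and by 0.26 without the 2 B6 mice. *Gabrg3* and *Gabrd*, the delta subunit of extrasynaptic receptors, were not called against B6 in any strain when all mice were used.

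The subunits of narrow expression gave larger differences at low levels. *Gabre* and *Gabrq*, for the epsilon and theta subunits of hypothalamic and brainstem neurons, sit side by side with *Gabra3* on chromosome X. *Gabre* was higher than B6 by 0.51 ± 0.19, 0.66 ± 0.19 and 0.44 ± 0.19, and *Gabrq* by 0.28 ± 0.12, 0.48 ± 0.12 and 0.72 ± 0.13, in CAST, WSB and PWK. *Gabre* differed by 0.48, 0.63 and 0.41 without the 2 B6 mice, and the calls of *Gabre* in PWK and of *Gabrq* in CAST were lost. In WT WSB *Gabre* ran at 1.56, 4.36 and 5.58 CPM against 1.73, 2.59 and 3.62 CPM in WT B6, with overlapping ranges, and with edgeR adjusted p = 0.00217 the call was lost in females alone (adjusted p = 0.129, the range over alternatives being 0.00179 to 0.129). *Gabrq* in WT PWK ran at 11.4, 15.1 and 19.9 CPM against 5.97, 9.44 and 13.0 CPM in B6, with 9 of 11 mice above all B6 mice (edgeR adjusted p = 7.62e-07), and its difference without the 2 B6 mice was 0.67. Of the rho subunits, best known from the retina, *Gabrr1* had the lowest level per length of the 31 members in each strain, with a mean of 0.0939 CPM per kilobase in WT B6 mice.

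*Gabrr2* had lowest, median and highest levels of 0.742, 1.40 and 1.64 CPM in WT B6 and 0.176, 0.439 and 0.760 CPM in WT CAST. Of the 12 CAST mice 11 lay below every B6 mouse, and the difference was -1.53 ± 0.19 (edgeR adjusted p = 3.70e-11; -1.49 without the 2 B6 mice). It was also lower in PWK, at -0.42 ± 0.18, a call lost without the 2 B6 mice, and the value for WSB was 0.044, not called. *Gabrr1*, its neighbour on chromosome 4, had 0.0720, 0.177 and 0.419 CPM in WT B6 and 0.255, 0.366 and 0.799 CPM in WT WSB. The groups overlapped, and the difference of 1.03 ± 0.29 (edgeR adjusted p = 0.00212) rested on few reads and was not called in males alone (adjusted p = 0.0637, with 5.37e-04 to 0.0637 over the alternatives), while without the 2 B6 mice it was 1.16.

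The GABA-B receptor is a pair of the products of *Gabbr1*, which binds GABA, and *Gabbr2*, which couples to the G protein. *Gabbr1* had the highest level per length of the 31, with a mean of 109.9 CPM per kilobase in WT B6, and it was lower in CAST, at -0.047 ± 0.016 (edgeR adjusted p = 0.00687; -0.054 without the 2 B6 mice). *Gabbr2* was higher than B6 by 0.19 ± 0.033 in CAST, 0.25 ± 0.033 in WSB and 0.15 ± 0.034 in PWK (edgeR adjusted p = 8.33e-07, 1.04e-09 and 1.18e-04). Its medians were 339.9 CPM in B6 and 385, 408 and 384 CPM in CAST, WSB and PWK, and without the 2 B6 mice the differences were 0.16, 0.22 and 0.12. The differences of both subunits were small beside that of *Gabra2*.

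Genes that make, carry and break down GABA kept close to the B6 level. *Gad1* and *Gad2* encode the glutamate decarboxylases, *Slc32a1* the vesicular GABA transporter, *Slc6a11* a GABA transporter of astrocytes and *Abat* the transaminase that breaks GABA down. *Gad1*, at 435, 532 and 662 CPM in WT B6, was not called against B6 in any strain, with differences of 0.0026, -0.013 and 0.035, and neither was *Slc6a11*. *Gad2* was higher in PWK by 0.090 ± 0.037 (0.062 and not called without the 2 B6 mice), *Slc32a1* was lower in CAST, at -0.10 ± 0.034, and *Abat* was lower in WSB, at -0.075 ± 0.032 (edgeR adjusted p = 0.0427), a call that DESeq2 did not make, and higher in PWK by 0.094 ± 0.032. Of the synaptic genes, *Nlgn2*, the neuroligin of inhibitory synapses, was higher by 0.10 ± 0.020, 0.14 ± 0.020 and 0.12 ± 0.020, and in PWK each mouse was above each B6 mouse (326 to 354 against 299 to 323 CPM). *Gphn*, for the scaffold protein gephyrin, was lower in CAST, at -0.17 ± 0.023 and in PWK, at -0.14 ± 0.023. Without the 2 B6 mice *Slc32a1* in CAST was at -0.079, *Abat* in WSB and PWK at -0.097 and 0.072, *Nlgn2* at 0.094, 0.14 and 0.11, and *Gphn* in CAST and PWK at -0.17 and -0.15.

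Among the interneuron genes, *Reln*, *Calb2* and *Dlx6os1* differed from B6, and *Pvalb*, *Calb1*, *Lhx6*, *Dlx1* and *Dlx2* were not called in any strain. *Reln*, for the secreted glycoprotein reelin of interneurons and cerebellar granule cells, had 135, 218 and 244 CPM in WT B6 and 288, 313 and 338 CPM in WT CAST. These groups did not overlap, and the difference was 0.57 ± 0.057 in CAST (edgeR adjusted p = 4.16e-15, 12 of 12 mice), 0.47 ± 0.057 in WSB (2.54e-11, 11 of 12) and 0.22 ± 0.058 in PWK (6.68e-04, 5 of 11). Without the 2 B6 mice these were 0.52, 0.42 and 0.17. *Calb2*, for calretinin, was lower than B6 in CAST, at -0.27 ± 0.059 and in WSB, at -0.39 ± 0.059, and higher in PWK by 0.36 ± 0.060 (edgeR adjusted p = 4.52e-05, 2.70e-08 and 1.40e-07). Its medians were 113 CPM in B6 against 94.7, 86.9 and 149 CPM in CAST, WSB and PWK, so that the wild-derived strains fell on both sides of B6, and without the 2 B6 mice the differences were -0.23, -0.35 and 0.40. *Dlx6os1*, a long noncoding RNA that overlaps *Dlx6* on the opposite strand, had 17.0, 25.4 and 40.4 CPM in WT B6 and 38.7, 54.7 and 72.1 CPM in WT WSB. The ranges overlapped at the B6 top, the difference was 1.09 ± 0.15 (edgeR adjusted p = 1.91e-09, 11 of 12 above all B6 mice), and PWK was lower than B6, at -0.43 ± 0.16. These values were 1.04 and -0.48 without the 2 B6 mice. The strand setting of the counting was not stated, so reads of *Dlx6* in this count cannot be told apart.

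Markers of the olfactory bulb varied widely between mice. The sum of 5 bulb markers, with *Cdhr1* the most abundant and none at 0 in any group, had its lowest, median and highest values at 20.5, 62.4 and 140.0 CPM in WT B6, 39.4, 82.2 and 105 CPM in CAST, 24.3, 52.2 and 93.9 CPM in WSB and 40.2, 78.0 and 92.3 CPM in PWK. The spread between mice of a group was thus larger than the differences between strains, and edgeR called 2, 1 and 0 of the 5 markers against B6 in CAST, WSB and PWK (for PWK, 0 at unadjusted p under 0.05 and 0 by DESeq2). The bulb is rich in interneurons, and after group means were taken off, 5 members had an r over 0.5 with the sum across the 93 mice. The value of r without the 2 mice farthest from the median of the sum is given beside each. Pearson's r and Spearman's rho were 0.90 and 0.93 for *Dlx1* (0.88 for r without 2 mice, 0.91 to 0.94 within series and sets) and 0.90 and 0.90 for *Gad1* (0.89 for r without 2 mice, 0.85 to 0.95 within series and sets). They were 0.87 and 0.88 for *Dlx2* (0.85 for r without 2 mice, 0.82 to 0.93 within series and sets), 0.73 and 0.77 for *Dlx6os1* (0.70 for r without 2 mice, 0.52 to 0.91 within series and sets) and 0.52 and 0.50 for *Calb2* (0.53 for r without 2 mice, 0.23 to 0.72 within series and sets). Each of these 10 permutation p values was 1e-05, the smallest that the permutations can give, and 5.64e-05 after adjustment over the 62 relations computed. With r and rho both at an adjusted permutation p under 0.05, 10 members were related to the bulb sum positively and 4 negatively, and to the granule cell sum 6 positively and 8 negatively. The negative ones for the bulb were *Gabrd*, *Gabbr1*, *Gabbr2* (r -0.43, rho -0.50) and *Pvalb*. The 62 relations cover the 31 members alone, so no share of all genes stands beside these counts of related members. Of all genes, 0.894% had an r over 0.5 with the bulb markers, beside these 5 of 31 members, and 1.35% with the granule cell markers, beside 4 of 31. The granule cell relations besides *Gabra6* were 0.76 and 0.74 for *Calb1* (0.77 for r without 2 mice, 0.68 to 0.81 within series and sets), 0.54 and 0.41 for *Reln* (0.52 for r without 2 mice, 0.37 to 0.83 within series and sets) and 0.53 and 0.60 for *Pvalb* (0.45 for r without 2 mice, -0.26 to 0.91 within series and sets), the last of which was negative in the B6 series. Their permutation p was 1e-05 (adjusted 5.64e-05), except 4e-05 (adjusted 1.91e-04) for the rho of *Reln*. The part of bulb or cerebellum in the strain differences of these members was not tested.

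**Figure D3:**
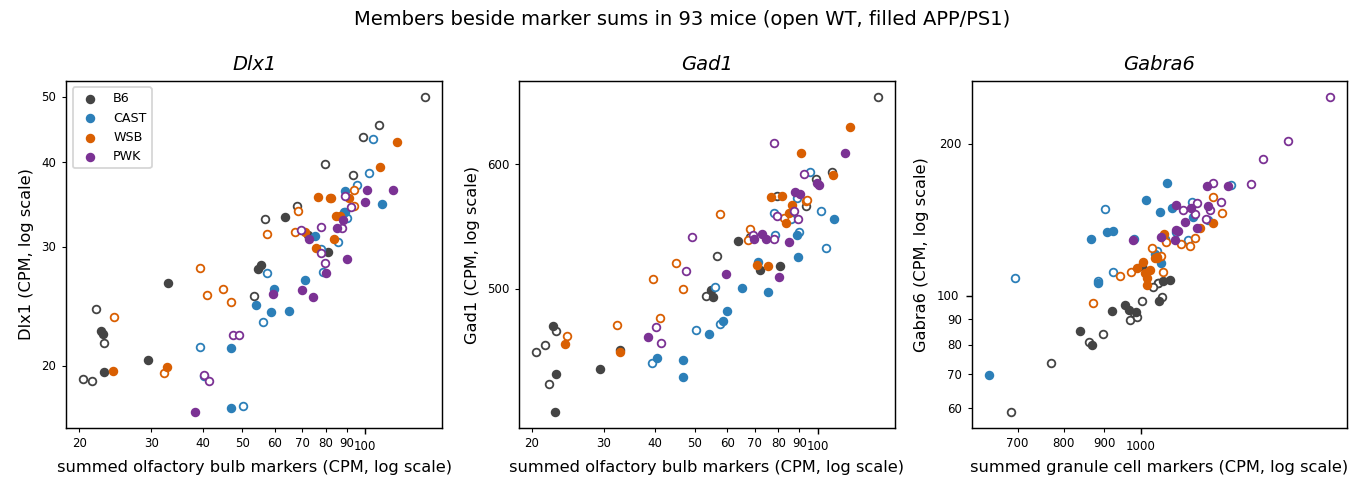
Level of *Gad1* against the summed olfactory bulb markers and of *Gabra6* against the summed cerebellar granule cell markers (CPM, log axes) in each of 93 mice, coloured by strain, open for WT and filled for *APP/PS1*. Over deviations from group means Pearson's r is 0.90 for *Gad1* and 0.89 for *Gabra6*.

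Markers of other cell types were compared as well, and their called shares stand beside 61.4%, 47.5% and 59.2% of all genes in CAST, WSB and PWK against B6. The sum of 6 oligodendrocyte markers, with *Mbp* the most abundant and none at 0 in any group, had a median of 6400.0 CPM in WT B6 and 4008, 4256 and 4150.4 CPM in CAST, WSB and PWK. All 6 were called as lower than B6 in each strain, with median log2 differences of -0.61, -0.58 and -0.58. Of 6 pan-neuronal markers 3 were called in each strain, with medians of 0.017, 0.047 and 0.090, and of 8 excitatory neuron markers 4, 4 and 5, with medians of 0.021, 0.061 and 0.035. Against B6 in CAST, WSB and PWK, edgeR called 6, 5 and 6 of 7 astrocyte markers, 5, 6 and 5 of 6 microglia markers and 5, 4 and 4 of 5 endothelial markers. Of the region markers it called 5, 2 and 3 of 5 for Purkinje cells, 3, 3 and 3 of 7 for striatal projection neurons, 3, 4 and 4 of 5 for thalamus and 4, 1 and 4 of 5 for choroid plexus. With the 2 B6 mice left out it called 6, 6 and 6 oligodendrocyte, 4, 3 and 3 pan-neuronal, 4, 4 and 5 excitatory neuron, 6, 6 and 6 astrocyte, 5, 5 and 3 microglia and 5, 4 and 5 endothelial markers. For Purkinje cells, striatal projection neurons, thalamus and choroid plexus these counts were 5, 2 and 3, then 3, 3 and 2, then 3, 4 and 3, and 4, 1 and 4. The part of cell composition in the differences of the members, *Gabra2* included, was not tested.

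Of 31 other genes of the GABA pathway, 29 were tested; *Insyn2a* matched no identifier and *Gabrp* did not pass the filter on low counts. edgeR called 16 of the 29 in CAST (9 higher, 7 lower), 15 in WSB (5 and 10) and 19 in PWK (5 and 14) against B6, beside 61.4%, 47.5% and 59.2% of all genes. The counts were 16, 16 and 19 without the 2 B6 mice. Those with an absolute log2 difference of at least 0.5 included *Gabrr3*, for another rho subunit, at 1.78 in CAST, a value that rests on few reads (lowest, median and highest levels 0, 0.0466 and 0.146 CPM in WT B6 and 0.0606, 0.167 and 0.481 CPM in WT CAST). Also among them was *Slc6a12*, for a betaine and GABA transporter, at -0.78 in CAST and -1.42 in PWK. *Slc6a13*, for a GABA transporter of the brain's linings, was at -1.08 in PWK, and *Glul*, for the glutamine synthetase of astrocytes, at -0.62 in WSB and -0.57 in PWK. Of the choroid plexus markers, with *Ttr* the most abundant and none at 0 in any mouse, those called against B6 (4 of 5 in CAST, 1 of 5 in WSB and 4 of 5 in PWK) were all lower, with median log2 differences of -0.76, -0.084 and -0.64 over the 5. Their sums overlapped, with medians of 480 CPM in WT B6 and 435, 455 and 364 CPM in the order CAST, WSB and PWK. Of the astrocyte markers called, with *Slc1a2* the most abundant and none at 0 in any mouse, 4 were higher and 2 lower in CAST, 1 higher and 4 lower in WSB and 3 higher and 3 lower in PWK. The medians of their sums were 5082 CPM in WT B6 and 5455, 4797 and 5300.1 CPM in the other strains. The part of these cell types in the differences of the transporters and of *Glul* was not tested.

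Of 30 other interneuron genes, all tested, edgeR called 15 in CAST (7 higher, 8 lower), 13 in WSB (7 and 6) and 15 in PWK (8 and 7) against B6, beside 61.4%, 47.5% and 59.2% of all genes, and 12, 14 and 14 without the 2 B6 mice. *Cort*, for the neuropeptide cortistatin, was at 0.86 in CAST, -0.80 in WSB and -1.29 in PWK. It thus lay on both sides of B6, with signs opposite to those of *Calb2* in CAST and PWK. *Lamp5*, a marker of neurogliaform cells, was lower, at -0.53, -0.39 and -0.70, and so was *Crh*, for corticotropin-releasing hormone, at -0.60 in WSB. *Nkx2-1*, a transcription factor of the medial ganglionic eminence, was higher in PWK by 0.81. Between the wild-derived strains, CAST against WSB, CAST against PWK and WSB against PWK, edgeR called 14, 19 and 14 of the 29 other GABA pathway genes and 18, 16 and 14 of the 30 other interneuron genes, beside 54.2%, 54.8% and 54.5% of all genes.

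Between WT CAST and WT WSB, whose libraries were mixed within the sets, the differences lay in *Gabrr2* and *Dlx6os1*, both lower in CAST. edgeR called 13 of 31 members, beside 54.2% of all genes, 5 of them higher in CAST (beside 27.1%) and 8 lower (beside 27.2%), and 3 differing by at least 0.5 (beside 25.1%). The median and the median absolute log2 difference of the 31 were -0.0015 (all genes 0.00) and 0.10 (all genes 0.23). *Gabrr2* had 0.176, 0.439 and 0.760 CPM in CAST and 0.863, 1.28 and 1.83 CPM in WSB, and *Dlx6os1* had 12.8, 23.3 and 38.1 and 38.7, 54.7 and 72.1 CPM. The groups did not overlap for these 2 members, beside 14.4% of all genes. The differences were -1.57 ± 0.19 for *Gabrr2* (edgeR adjusted p = 1.69e-11, 12 of 12 mice, -1.78 to -1.32 within sets) and -1.19 ± 0.15 for *Dlx6os1* (edgeR adjusted p = 7.87e-11, 12 of 12 mice, -1.31 to -1.11 within sets). *Gabrr1* was lower in CAST, at -0.88 ± 0.29 (edgeR adjusted p = 0.00672; -1.11 to -0.60 within sets), and *Gabrb1* was higher by 0.19 ± 0.059 (edgeR adjusted p = 0.00349; 0.20 to 0.21 within sets). Neither was called in males alone, nor *Gabrr1* in females alone.

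Between WT CAST and WT PWK few members were called as higher in CAST, while the share called as lower was near that of all genes. edgeR called 11 of 31, beside 54.8% of all genes, 2 higher in CAST (beside 27.8%) and 9 lower (beside 27.1%), 2 differing by at least 0.5 (beside 25.6%), and 8 of the 11 were GABA-A subunits. For the 31 the median and the median absolute log2 difference were -0.022 (all genes 0.00) and 0.089 (all genes 0.24). *Calb2* had 78.7, 94.7 and 118 CPM in CAST and 135, 149 and 164 CPM in PWK, and *Gabrg1* had 27.7, 33.1 and 37.5 and 41.2, 46.4 and 50.9 CPM. Both sets of groups lay apart, as did those of *Reln* (288 to 338 against 215 to 283 CPM), 3 members in all, beside 14.3% of all genes. *Calb2* differed by -0.63 ± 0.060 (edgeR adjusted p = 4.98e-16, 12 of 12 mice, -0.66 to -0.61 within sets) and *Gabrg1* by -0.49 ± 0.061 (edgeR adjusted p = 2.17e-11, 12 of 12 mice, -0.54 to -0.46 within sets). *Gabrr2* was lower in CAST, at -1.10 ± 0.20 (-1.51 to -0.67 within sets), and *Gabrq* by -0.43 ± 0.13 (-0.70 to -0.23 within sets), the latter not called in males alone.

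WT WSB and WT PWK were told apart by *Dlx6os1*, higher in WSB, and by *Calb2* and *Gabra2*, lower in WSB. edgeR called 14 of 31 members, beside 54.5% of all genes, 7 higher in WSB (beside 27.5%) and 7 lower (beside 27.0%), and 2 differing by at least 0.5 (beside 26.0%). Over the members the median and the median absolute log2 difference were -0.012 (all genes 0.00) and 0.10 (all genes 0.24). *Dlx6os1* had 10.3, 19.3 and 26.9 CPM in PWK, below every WSB mouse, and *Calb2* had 72.5, 86.9 and 102 CPM in WSB, below every PWK mouse. With *Gabra2* these were the 3 members whose groups did not overlap, beside 15.0% of all genes. *Dlx6os1* was higher in WSB by 1.52 ± 0.16 (edgeR adjusted p = 2.77e-14, 12 of 12 mice, 1.37 to 1.86 within sets) and *Calb2* lower, at -0.75 ± 0.060 (edgeR adjusted p = 8.60e-20, 12 of 12 mice, -0.75 to -0.69 within sets). *Gabra6* was lower in WSB, at -0.44 ± 0.084 (edgeR adjusted p = 4.57e-06, 10 of 12 mice below all PWK mice, -0.65 to -0.45 within sets), and so were 5 of the 7 granule cell markers, whose part was not tested. DESeq2 called 5 of these 7 markers as lower in WSB and 1 as higher. *Gabrr2* was higher in WSB by 0.47 ± 0.18 (edgeR adjusted p = 0.0266; 0.27 to 0.72 within sets), a call lost in each sex alone and without PWK WT female 4 (0.41, adjusted p = 0.0601, with 0.0116 to 0.169 over the alternatives).

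The *APP/PS1* response was seen in glial genes of each strain. *Gabra3* in PWK was the only member called in any strain. In PWK 2.04% of all genes were called, and the *Gabra3* call was lost in females alone and in males alone. Of 6 microglia markers, with *Csf1r* the most abundant, 3, 3, 4 and 4 rose with the *APP/PS1* genotype in B6, CAST, WSB and PWK, and *Gfap*, the astrocyte filament gene, rose by 0.51, 0.36, 0.48 and 0.36. The sum of the microglia markers had a median of 232 CPM in PWK WT and 282 CPM in PWK.*APP/PS1* mice, and no marker was at 0 in any group. Of 7 astrocyte markers 1, *Gfap*, was called in each strain. In the comparisons that follow, the shares of all genes are of genes called at the adjusted p. No such share is given for counts at an unadjusted p.

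In B6 no member passed the test, and *Gabra5* and *Gad1* came nearest, both with lower values in *APP/PS1* mice. edgeR called 0 of 31 members, beside 0.224% of all genes (0.215% higher and 0.00844% lower), 5 had an unadjusted p under 0.05, and DESeq2 called 0. The members' median and median absolute log2 difference were -0.041 (all genes 0.00) and 0.060 (all genes 0.057). The smallest p was that of *Gabra5*, at 46.3, 52.0 and 60.2 CPM in B6 WT and 41.6, 48.0 and 53.3 CPM in B6.*APP/PS1* mice. The ranges overlapped, and the difference of -0.14 ± 0.043 was not called (edgeR adjusted p = 0.307). *Gad1* differed by -0.15 ± 0.053 (edgeR adjusted p = 0.550), *Dlx1* by -0.30, *Dlx2* by -0.42 and *Gphn* by -0.060, none of them called. The olfactory bulb markers, which *Gad1*, *Dlx1* and *Dlx2* followed from mouse to mouse, had a median log2 difference of -0.47 in the same comparison (edgeR called 0 of 5, 1 had an unadjusted p under 0.05, DESeq2 called 0), and their part was not tested. Without the 2 B6 mice edgeR also called 0 members.

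In CAST no member passed the test either, and the smallest p was that of *Calb2*. Of the 31 members edgeR called 0, beside 0.658% of all genes (0.544% higher and 0.114% lower), 5 had an unadjusted p under 0.05, and DESeq2 called 0. Over the members the median and median absolute log2 difference were 0.0042 (all genes 0.00) and 0.066 (all genes 0.059). *Calb2* was at 78.7, 94.7 and 118 CPM in CAST WT and 73.7, 84.3 and 97.9 CPM in CAST.*APP/PS1* mice, with overlapping ranges and a difference of -0.17 ± 0.059 (edgeR adjusted p = 0.283). *Gabrb1* differed by 0.14 ± 0.059 (edgeR adjusted p = 0.488), *Gad1* by -0.10, *Gabrd* by -0.12 and *Gabra3* by 0.066. The bulb markers had a median difference of -0.38, with 0 of 5 called by edgeR or DESeq2 and 0 at an unadjusted p under 0.05.

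In WSB no member passed the test, and *Lhx6* came nearest. With edgeR 0 of 31 members were called, beside 0.375% of all genes (0.308% higher and 0.0675% lower), 1 had an unadjusted p under 0.05, and DESeq2 called 0. The median and median absolute log2 difference were 0.014 (all genes 0.00) and 0.037 (all genes 0.059). *Lhx6*, a transcription factor of interneurons from the medial ganglionic eminence, was at 12.8, 14.9 and 17.8 CPM in WSB WT and 12.4, 13.7 and 16.4 CPM in WSB.*APP/PS1* mice. The ranges overlapped, and the difference was -0.15 ± 0.058 (edgeR adjusted p = 0.437; -0.19 to -0.16 within sets). *Gabrr1* was next, at 0.255, 0.366 and 0.799 CPM in WSB WT and 0.138, 0.318 and 0.609 CPM in WSB.*APP/PS1* mice, again with overlap and a difference of -0.51 ± 0.28 (edgeR adjusted p = 0.71; -0.77 to -0.33 within sets). The bulb markers had a median difference of 0.52, with 0 of 5 called by edgeR or DESeq2 and 2 at an unadjusted p under 0.05. Among the other interneuron genes *Crh* rose by 0.62 in WSB (edgeR adjusted p = 0.00481).

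In PWK, *Gabra3* rose: its lowest, median and highest levels were 112, 138 and 143 CPM in PWK WT and 140.4, 148 and 156 CPM in PWK.*APP/PS1* mice. 11 of the 12 PWK.*APP/PS1* mice were above every PWK WT mouse, and the remaining mouse was within the WT range. The difference was 0.12 ± 0.029 (edgeR adjusted p = 0.00521; 0.10 to 0.22 within sets), a small step that was made by most mice. edgeR thus called 1 of 31 members, beside 2.04% of all genes, in the higher direction (beside 1.57%), 7 had an unadjusted p under 0.05, and DESeq2 called 1. The median of the members was 0.040 (all genes 0.00) and their median absolute difference 0.072 (all genes 0.069). The call was lost in females alone (0.10, adjusted p = 0.467) and in males alone (0.14, 0.0677), the adjusted p over all alternatives being 0.00255 to 0.467. *Gabra3* differed by 0.0098 in B6, 0.066 in CAST and 0.030 in WSB, and the test between strains gave an edgeR adjusted p of 0.545, so a difference of PWK from the other strains was not shown. Across the 93 mice, over deviations from group means, *Gabra3* ran against the sum of the granule cell markers, with r = -0.49 and rho = -0.47 (each permutation p 1e-05, adjusted over 62 relations 5.64e-05; -0.43 for r without the 2 farthest mice). Within the B6 series r was 0.18, and within the 3 sets -0.70 to -0.66. The granule cell sum had a median of 1233 CPM in PWK WT and 1125 CPM in PWK.*APP/PS1* mice, and its part in the *Gabra3* difference was not tested. The paper states that PWK.*APP/PS1* mice were housed singly from an earlier age than the other mice, because of aggression. In PWK a difference by genotype therefore cannot be told apart from a difference by housing.

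The other PWK members with an unadjusted p under 0.05 were *Calb2* (-0.17), *Gabra6* (-0.23), *Pvalb* (-0.19), *Gabrd* (-0.15), *Calb1* (-0.12) and *Gabrb1* (0.12), none of them called. *Gabra6* ran at 142, 154 and 248 CPM in PWK WT and 129, 138 and 165 CPM in PWK.*APP/PS1* mice. The *APP/PS1* mice lay within or below the WT range, and the highest WT mouse had no match among them. The 7 granule cell markers had a median difference of -0.20 (edgeR called 0, 5 had an unadjusted p under 0.05, DESeq2 called 0). The 5 Purkinje cell markers had a median of -0.21 (0 called by edgeR, 3 at an unadjusted p under 0.05, 0 by DESeq2), and the part of the cerebellar share in these members was not tested.

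**Figure D4:**
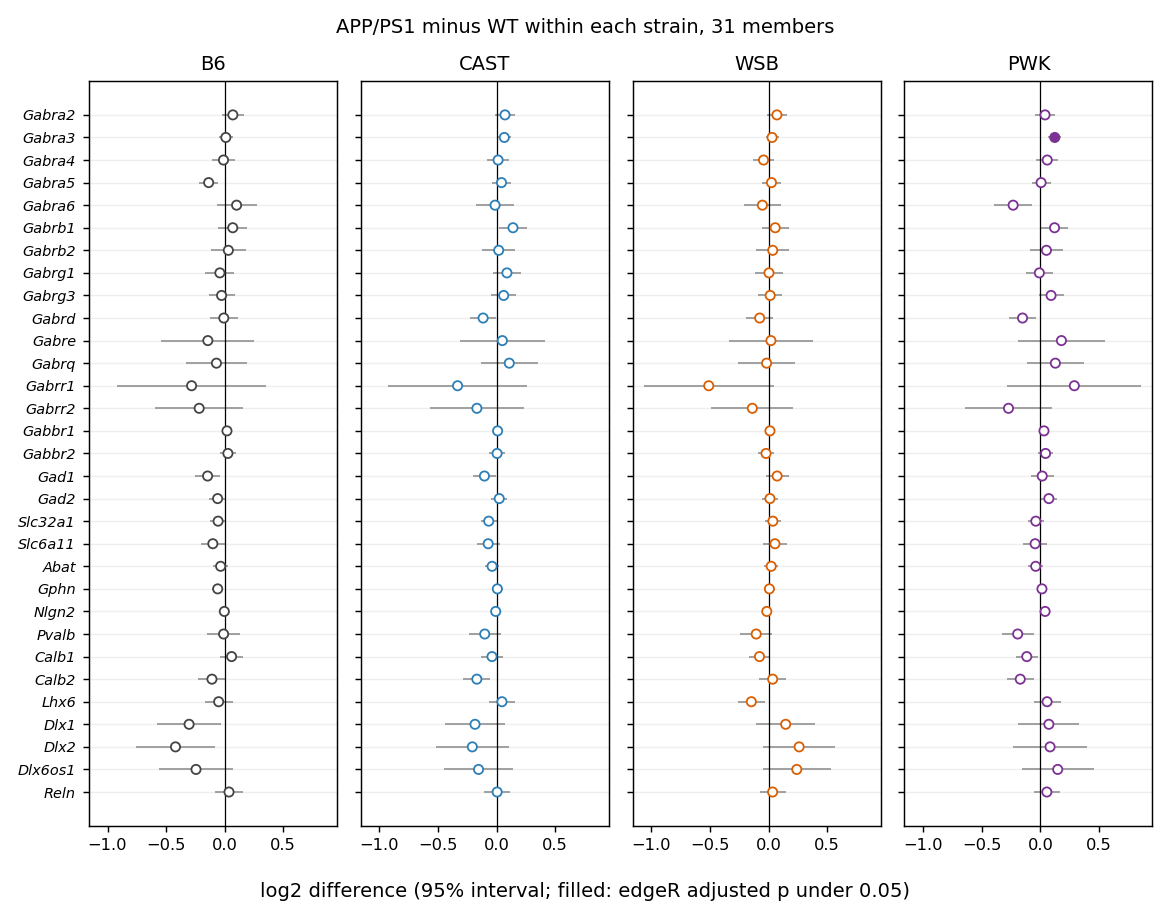
Log2 difference (points, filled where called, with 95% intervals from edgeR) between *APP/PS1* and WT mice for each of the 31 members in B6, CAST, WSB and PWK. *Gabra3* in PWK, at 0.12, is the 1 member called.

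The test of whether the *APP/PS1* response differed between the 4 strains called 0 of 31 members with edgeR, beside 0.473% of all genes, 5 had an unadjusted p under 0.05, and DESeq2 called 0. The smallest p was for *Gad1* (edgeR adjusted p = 0.342), whose responses were -0.15, -0.10, 0.074 and 0.015 in the order B6, CAST, WSB and PWK. The bulb markers had negative medians in B6 and CAST and positive ones in WSB and PWK (0.19 in PWK), and *Gad1* had the same order of signs. The part of the bulb in the *Gad1* responses was not tested. *Gabra5* followed (edgeR adjusted p = 0.373), with responses of -0.14, 0.042, 0.025 and 0.0057. On simulated data this test missed more of the changed genes of low count than the test of the PWK response did, and a p that misses the threshold does not show that the responses were alike.

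Averaged over the 4 strains and both genotypes, *Gabra5* was higher in males than in females by 0.077 ± 0.020 (edgeR adjusted p = 0.0284), a mean to which the strains gave unequal parts. The medians of 45.3 CPM in males and 44.2 CPM in females mix the strains. Male and female medians were 56.5 and 48.1 CPM in B6 WT, 50.3 and 45.9 CPM in B6.*APP/PS1*, 44.1 and 39.8 CPM in WSB WT and 44.9 and 40.3 CPM in WSB.*APP/PS1* mice. They lay close together in CAST WT (44.4 and 44.4 CPM), CAST.*APP/PS1* (46.5 and 45.9 CPM), PWK WT (41.3 and 41.9 CPM) and PWK.*APP/PS1* (42.5 and 41.2 CPM). Whether the sex difference itself differed between strains was not tested. It was the 1 of 31 members called, beside 1.77% of all genes (0.738% in that direction), and 3 had an unadjusted p under 0.05. Without B6.*APP/PS1* female 3 the difference was 0.071 and was not called (adjusted p = 0.0561), nor was it with no filter on low counts (0.0504), the range over the alternatives being 0.0147 to 0.0561. *Gabra2* did not differ beyond its spread between the sexes, at 0.026 ± 0.022 (edgeR adjusted p = 0.646).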

How the data were processed

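The deposited files held raw read counts per Ensembl gene, which the authors made with Trimmomatic, STAR (the mm10 reference for B6, a genome of its own for each other strain) and HTSeq; its strand setting was not stated. Reads that HTSeq gave to no single gene (no feature, ambiguous or not uniquely aligned; medians of 29.1% in B6, 31.8% in CAST, 31.1% in PWK and 30.2% in WSB) were left out. Genes with at least 10 counts in at least 10% of mice were tested with edgeR 4.0.16 (TMM scaling, quasi-likelihood F tests, Benjamini-Hochberg adjustment over all genes) in R 4.3.3, with 1 term for each of the 16 groups and contrasts averaged over the sexes. Tests were two-sided. The procedure was tested on simulated data, where the test of responses between strains missed more of the changed genes of low count than the test of the PWK response did and fell short of the recovery first asked of it; the bound was afterwards set on genes of higher count. Alternatives were other size factors, DESeq2 1.42.0, no count filter, a replicate block, library set as a term, each sex alone, only the mice compared, each mouse of the smaller groups left out, and, chosen after seeing the data, 2 B6 mice left out. Described in full were *Gabra2* and, in each comparison, up to 4 called members (by size of difference between WT strains, by p elsewhere) or, where none was called, the 2 of smallest p, and from the other lists up to 4 called genes with an absolute log2 difference of at least 0.5. Members and lists were chosen with earlier results of these data known.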

Additional observations from a re-analysis of the deposited data

Results flagged for a closer look

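Of 240 pairs of a named member and a group, 18 (7.5%) held a mouse far from the others of its strain, genotype and sex, in 11 of the 15 members examined, and chance gives about 1 in 20 such groups. The gap to the nearest other mouse took up most of the group's range in each case. 4 of the 18 came from the 2 B6 mice that stood apart: B6 WT male 5 was lowest of 6 for *Gabra3* (119 CPM, others 129 to 132), *Gabrb1* (124 CPM, others 199 to 239) and *Reln* (135 CPM, others 211 to 244), and B6.*APP/PS1* female 2 was highest of 4 for *Calb2* (138 CPM, others 99.7 to 102).

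*Gabra2* was highest of 6 in WSB WT male 2 (190.6 CPM, others 168 to 174) and in PWK.*APP/PS1* female 3 (263 CPM, others 222 to 231), both far above every B6 mouse. *Gabra5* was highest of 5 in PWK WT female 5 (46.7 CPM, others 41.4 to 42.7) and lowest of 6 in CAST.*APP/PS1* female 2 (41.1 CPM, others 45.5 to 47.7). That CAST mouse was also highest for *Gabrr1* (0.362 CPM, others 0.119 to 0.200), as was WSB WT female 5 (0.684 CPM, others 0.334 to 0.417).

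The neighbours *Gabre* and *Gabrq* were both highest in B6.*APP/PS1* male 6 (5.56 CPM, others 1.68 to 2.83, and 14.7 CPM, others 7.12 to 9.72). *Gabre* was also highest in B6.*APP/PS1* female 3 (2.98 CPM, others 1.44 to 1.70) and lowest in WSB WT male 6 (1.56 CPM, others 4.202 to 5.54). *Lhx6* was lowest in B6.*APP/PS1* female 4 (13.1 CPM, others 15.3 to 15.6) and in PWK.*APP/PS1* female 3 (12.1 CPM, others 15.0 to 16.7). *Calb2* was highest in CAST WT female 5 (118 CPM, others 85.5 to 96.0), and *Dlx6os1* in B6 WT female 3 (32.8 CPM, others 17.0 to 22.2).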

How the results depend on the processing

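The 12 counts of called members and the 3 differences of *Gabra2* from B6 were recomputed under those of the 9 alternatives that could be run for each (library set as a term was not run for the differences from B6), and again with each of 9 mice of the 2 smaller groups left out in turn. Of 125 such values, mice left out in turn not counted, 119 stayed within 1.5 times the reported count or, for *Gabra2*, kept direction and call, and 6 moved further. With males only, 6 members were called between CAST and WSB (all genes 9832, against 12850 with both sexes), and with females only 8 between WSB and PWK (all genes 9543, against 12910). In the PWK *APP/PS1* response edgeR called 0 members in females only (all genes 220) and 0 in males only (all genes 160), and 2 with only the mice compared (all genes 428), against 483 genes with all mice. Between the sexes it called 0 with no count filter (all genes 300, against 419). Each sex alone has fewer mice; the cause was not tested.

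With each of the 9 mice left out in turn, edgeR called 16 to 16 members for CAST, 13 to 13 for WSB and 13 to 16 for PWK against B6. Between the wild-derived strains it called 13 to 13, 11 to 12 and 11 to 14 in CAST against WSB, CAST against PWK and WSB against PWK. The *APP/PS1* responses gave 0 to 0 in B6, CAST and WSB and 1 to 1 in PWK, the test between strains 0 to 0, and the sexes 0 to 1, the 0 being without B6.*APP/PS1* female 3.

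*Gabra2* was higher than B6 by 1.37 to 1.40 in CAST, 1.25 to 1.29 in WSB and 1.57 to 1.68 in PWK over all alternatives. Of 265 values of the 31 other results for named members, 254 kept their side of the threshold and 11 lost the call in the same direction. Leaving out mice gave 277 of 279 on the same side and 2 lost calls, and none of these values changed sign. With 2 B6 mice left out, chosen after the data were seen, the counts were 15, 13 and 15 against B6.

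Mice with the same replicate number were not paired by the labels: their profiles correlated at a mean of 0.00654 over 45 pairs, against -0.00131 over 225 other pairs. With the number as a replicate block, *Gabra2* was higher by 1.39, 1.27 and 1.63 and the counts of called members were 16, 13 and 16 against B6, 13, 11 and 14 between the other strains and 1 in the PWK response. The depth limits *Gabrr1* most, with a median of 19 reads.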
